A study of Mus musculus with 12 samples.

Results

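Cxcl9, Cxcl10 and Cxcl11 are the chemokine genes whose products bind the receptor CXCR3. They were taken by gene symbol from the full table of raw RNA-seq read counts, where they are 3 of 55536 rows, and all 3 passed the filter on low counts that left 19800 genes to test. The study sequenced pancreatic islets of mice aged 16 weeks on a mixed C57BL/6J background, cultured with or without inflammatory cytokines. Its title asks how PTPN2, a tyrosine phosphatase that dampens JAK-STAT signals, bears on the beta cell's susceptibility to inflammatory stress. The 4 groups had 3 libraries each. Islets labelled Ptpn2-bKO, with the genotype written PTPN2 -/-, were kept with IFN-gamma, IL-1beta and TNF-alpha together for 24 h or left untreated. Control islets, with the genotype written PTPN2 +/+ in one label and PTPN2 fl/fl in another, were likewise treated with the same mixture or left untreated. The islets came from 3 mice of each genotype, so treated and untreated libraries share mice, but the labels do not say which libraries came from the same mouse. The sources used here name neither the driver of the deletion nor the cytokine doses.

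CXCR3 sits mainly on activated T cells and NK cells, and its ligands draw these cells into inflamed tissue. IFN-gamma induces the ligand genes through JAK-STAT signals, and NF-kB, which TNF and IL-1 switch on, adds to the induction of Cxcl9 and Cxcl10 in particular. In islets of diabetic mice and people, CXCL10 and CXCL9 are known from beta cells and from infiltrating cells around them.

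The 3 genes lie side by side on the minus strand of mouse chromosome 5 (GRCm38, GENCODE M21), Cxcl9 at 92321347 to 92328079, Cxcl10 at 92346638 to 92348889 and Cxcl11 at 92359544 to 92365485. Cxcl9 and Cxcl10 are annotated as protein coding. Cxcl11 is annotated as a polymorphic pseudogene, because the C57BL/6 reference carries a frameshift in its reading frame that other mouse strains lack. The stretch from the start codon on is shown for 2 annotated transcripts, called long and short by their form at the frameshift, because they tell what a Cxcl11 count in these islets can stand for. In the long form the capitals mark the 2 bases AT at chr5:92363177-92363178 and the in-frame stop codon TGA. The annotation draws the short form without these 2 bases.
Cxcl11 long form: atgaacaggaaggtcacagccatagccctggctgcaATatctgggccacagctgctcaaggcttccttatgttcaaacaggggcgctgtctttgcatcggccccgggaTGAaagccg
Cxcl11 short form: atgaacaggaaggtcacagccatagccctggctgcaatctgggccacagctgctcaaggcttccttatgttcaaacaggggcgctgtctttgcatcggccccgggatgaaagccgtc
With the 2 bases the frame met a stop after 36 codons, and without them after 99 codons. Counts per gene do not tell which allele the mice carried, so Cxcl11 values below are RNA levels and say nothing about a protein.

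The promoters of the first 2 genes are shown because the cytokine mixture acts on the kinds of site marked in them. The sequences are the 250 bases before the annotated start from RefSeq (GRCm38.p6), which held an entry for 2 of the 3 members, chr5:92328080-92328329 for Cxcl9 and chr5:92348890-92349139 for Cxcl10, both read on the minus strand. Capitals mark matches, on either strand, to the core of the interferon-stimulated response element (ISRE), searched as GAAANNGAA, or to the NF-kB consensus.
Cxcl9: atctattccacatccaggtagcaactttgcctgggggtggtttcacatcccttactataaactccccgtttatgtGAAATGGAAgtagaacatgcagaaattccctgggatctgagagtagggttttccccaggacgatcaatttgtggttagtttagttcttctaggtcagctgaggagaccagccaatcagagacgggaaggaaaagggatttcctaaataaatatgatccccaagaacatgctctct
Cxcl10: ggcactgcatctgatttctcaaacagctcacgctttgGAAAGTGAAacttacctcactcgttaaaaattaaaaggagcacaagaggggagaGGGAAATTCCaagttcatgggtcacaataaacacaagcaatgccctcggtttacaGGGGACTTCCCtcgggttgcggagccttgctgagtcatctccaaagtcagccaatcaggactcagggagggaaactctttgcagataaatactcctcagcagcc
The Cxcl9 window held 1 ISRE core match, at -175 to -167 from the start. In the Cxcl10 window the ISRE core match lay at -213 to -205, 1 NF-kB match at -159 to -150, and overlapping NF-kB matches over -104 to -94. Of all 32851 mouse promoter windows of 300 bases, 8.56% held the ISRE core and 8.46% the NF-kB consensus. A match is a description of the letters and not evidence of binding.

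Library totals ran between 47064061 and 107515565 counts. In a principal component analysis the first component, with 91.3% of the variance, separated treated from untreated libraries, and on the second, with 3.78%, 1 library, the bKO replicate 2 with cytokines, lay at 28.3 while the other 11 lay between -17.3 and 3.4. The tests of the ligands, and of some other genes whose call or size that library could change, are therefore also given without it. Ptpn2 RNA, in counts scaled with TMM factors to 1000000 per library (CPM), was at 111, 84.2 and 107 CPM in treated islets labelled bKO, against 88.9, 90.4 and 78.3 CPM in treated control islets. Untreated islets labelled bKO had 36.7, 33.8 and 35.5 CPM, against 30.3, 31.5 and 31.4 CPM in untreated control islets. Ptpn2 was thus not lower under the bKO label in either condition. Counts per gene do not tell whether an exon was lost, and bulk islet RNA also holds cells other than beta cells. The deletion could therefore not be checked here, and the label is used below as a name of the group. Beta cell markers summed to between 89998 CPM, in replicate 2 of the treated islets labelled bKO, and 177419 CPM.

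Cytokines raised the RNA of all 3 ligands in both genotypes, with ratios of mean levels between 306-fold, for Cxcl11 in control islets, and 15374-fold, for Cxcl9 in control islets. Without cytokines Cxcl9 and Cxcl11 were close to the limit of detection in these deep libraries, and Cxcl10 stood at a low but measurable level. All 3 of 3 members were called higher in islets labelled bKO, where 28.8% of all genes tested were called higher, and all 3 of 3 in control islets, where 26.8% were. Cxcl9 and Cxcl11 passed the filter only through the treated libraries, so a rise was the only call open to them. For these genes the count is therefore not comparable with the share over all genes. In bulk islet RNA, more cells of a type and more RNA per cell cannot be told apart.

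Cxcl9, the ligand most tied to IFN-gamma, had 97914, 170226 and 92486 counts in treated islets labelled bKO, against 7, 33 and 4 counts in untreated ones. In control islets it had 147674, 171674 and 90399 counts with cytokines, against 4, 9 and 15 counts without. Every treated library lay far above every untreated one, and replicate 2 of the untreated islets labelled bKO held most of that group's 44 counts. The means were 2488 ± 537 CPM with cytokines and 0.217 ± 0.23 CPM without in islets labelled bKO (SD, n = 3 each), an 11477-fold ratio with a log2 fold change of 13.45 (SE 0.5), and in the quasi-likelihood test of edgeR the p adjusted by Benjamini-Hochberg was 2.5e-09. In control islets they were 2011 ± 380 CPM with cytokines and 0.131 ± 0.0607 CPM without (SD, n = 3 each), with a log2 fold change of 13.85 (SE 0.516; adjusted p = 2.4e-09, edgeR). Cxcl9 had the highest log2 fold change of the 19800 tested genes in both genotypes, and the gene after it, AC151990.1, had 13.07 in islets labelled bKO and 12.72 in control islets. The size of so large a ratio rests on the few untreated counts: leaving out single libraries moved the log2 fold change in islets labelled bKO between 13.02 and 14.81, and 14.81 was the value without replicate 2 of the untreated ones.

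Cxcl10, the ligand that type I interferons and NF-kB also induce, had 30545, 42723 and 34697 counts in treated islets labelled bKO, against 110, 170 and 83 counts in untreated ones. Treated control islets had 48132, 62983 and 38524 counts, against 114, 110 and 170 counts in untreated control islets. Treated and untreated libraries did not overlap in either genotype, and the untreated libraries held enough counts for a steady ratio. The means were 757 ± 33.1 CPM with cytokines and 1.82 ± 0.609 CPM without in islets labelled bKO (SD, n = 3 each), a 417-fold ratio (log2 8.70, SE 0.223; adjusted p = 2.4e-10, edgeR). In control islets Cxcl10 averaged 740 ± 79.3 CPM with cytokines and 1.89 ± 0.127 CPM without (SD, n = 3 each), a log2 fold change of 8.61 (SE 0.222; adjusted p = 2.0e-10, edgeR). By log2 fold change it was at place 32 in both genotypes, between Krt6b at 8.74 and Gbp2 at 8.65 in islets labelled bKO and between Gm5970 at 8.69 and Acod1 at 8.56 in control islets.

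Cxcl11, in most mouse strains a further IFN-induced ligand of CXCR3, had 2000, 2264 and 2412 counts in treated islets labelled bKO, against 5, 6 and 6 counts in untreated ones. Control islets had 1782, 2597 and 1586 counts with cytokines, against 8, 4 and 8 counts without. The untreated counts were single digits in all 6 libraries, and treated and untreated libraries did not overlap. The means were 47.4 ± 6.39 CPM with cytokines and 0.0856 ± 0.00834 CPM without in islets labelled bKO (SD, n = 3 each), a 553-fold ratio (log2 9.08, SE 0.186; adjusted p = 5.9e-11, edgeR). In control islets they were 29.4 ± 2.51 CPM with cytokines and 0.0959 ± 0.0291 CPM without (SD, n = 3 each), a 306-fold ratio (log2 8.22, SE 0.181; adjusted p = 9.1e-11, edgeR). Both of these SEs lie below the counting error of the few untreated counts, so the ratios are less certain than the SEs state. The place of Cxcl11 by log2 fold change was 26 in islets labelled bKO and 38 in control islets. Leaving out replicate 2 of the treated bKO group gave log2 fold changes in islets labelled bKO of 13.32 for Cxcl9, 8.74 for Cxcl10 and 9.23 for Cxcl11.

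**Figure D1:**
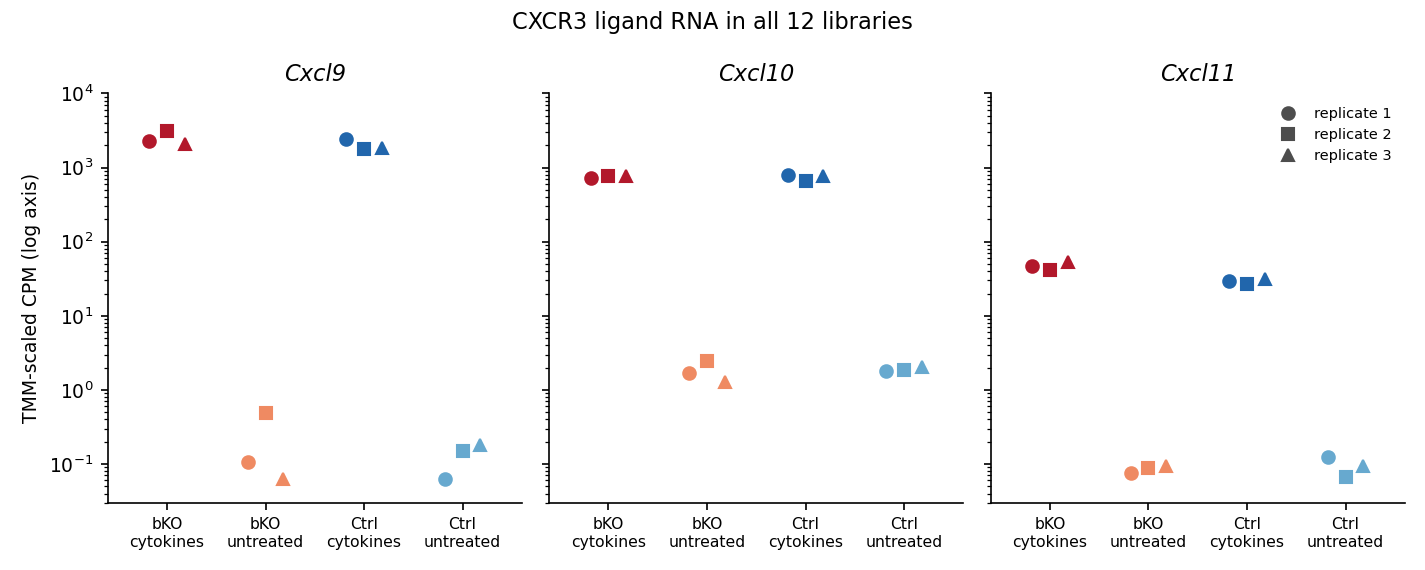
TMM-scaled CPM of the 3 ligands on a log axis in each library, with islets labelled bKO left of control islets and treated left of untreated ones; point shapes mark the replicate number. The treated libraries sit far above the untreated ones for every ligand, by 306-fold or more between group means, and Cxcl10 has the highest untreated level.

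Scaling by library totals instead of TMM factors lowered these log2 fold changes to 13.22, 8.47 and 8.85 in islets labelled bKO and to 13.62, 8.38 and 8.00 in control islets, with the median of all tested genes at -0.29 and -0.33 in place of -0.06 and -0.10. It also moved the split of all genes called, to 4000 higher and 8693 lower against 5711 and 6647 with TMM in islets labelled bKO, and to 3737 and 8998 against 5298 and 6704 in control islets. DESeq2 size factors moved the split the other way, to 6293 higher and 6023 lower in islets labelled bKO and 6029 and 5874 in control islets, with ligand values of 13.52, 8.77 and 9.15 and of 13.94, 8.70 and 8.31.

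Set against each other per length, Cxcl9 RNA was the most abundant ligand RNA in treated islets and Cxcl11 the least by far. With counts divided by the merged exon length of each gene and scaled to a sum of 1000000 per library (TPM), Cxcl9 was at 1751, 2832 and 1605 TPM in treated islets labelled bKO, against 1885, 1319 and 1502 TPM in treated control islets. Cxcl10 was at 731, 952 and 806 TPM in treated islets labelled bKO, against 823, 648 and 857 TPM in treated control islets. These levels put Cxcl9 between places 25 and 51 and Cxcl10 between places 91 and 116 of 55450 genes with a length, among the most abundant RNAs of the islet. Cxcl11 was at 28.4, 29.9 and 33.3 TPM in treated islets labelled bKO, against 18.1, 15.9 and 21 TPM in treated control islets. Within a library Cxcl9 was 1.99 to 2.98 times Cxcl10 in treated islets labelled bKO and 1.75 to 2.29 times in treated control islets. Cxcl10 was 24.2 to 31.8 times Cxcl11 in treated islets labelled bKO and 40.9 to 45.5 times in treated control islets. The first of these orders depends on the length used: Cxcl10 has a short and a long form in the annotation, and with the length of the first-named transcript of each ligand, an alternative chosen after the values were seen, Cxcl9 was 1.01 to 1.51 times Cxcl10 in treated islets labelled bKO and 0.889 to 1.16 times in treated control islets. Cxcl9 and Cxcl10 then did not differ beyond their spread in control islets, while Cxcl11 remained the lowest ligand under each of the 3 lengths tried.

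In untreated islets the order was another one. Cxcl10 averaged 2.3 ± 0.752 TPM in untreated islets labelled bKO and 2.34 ± 0.196 TPM in untreated control islets (SD, n = 3 each), and made up 85.8 to 93.1% and 91.4 to 93.6% of the 3 ligands' summed TPM. Cxcl9 averaged 0.205 ± 0.216 TPM in untreated islets labelled bKO and 0.122 ± 0.0582 TPM in untreated control islets, and Cxcl11 0.0646 ± 0.00662 TPM and 0.0702 ± 0.0197 TPM in the same groups (SD, n = 3 each). Cxcl9 and Cxcl11 did not differ beyond their spread there. With cytokines Cxcl9 took 65.7 to 74.3% of the sum in islets labelled bKO and 63.1 to 69.2% in control islets. These shares hold for merged exon lengths. With first-named transcript lengths the treated means of Cxcl9 and Cxcl10 were 2151 and 1707 TPM in islets labelled bKO, and 1636 and 1596 TPM in control islets.

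**Figure D2:**
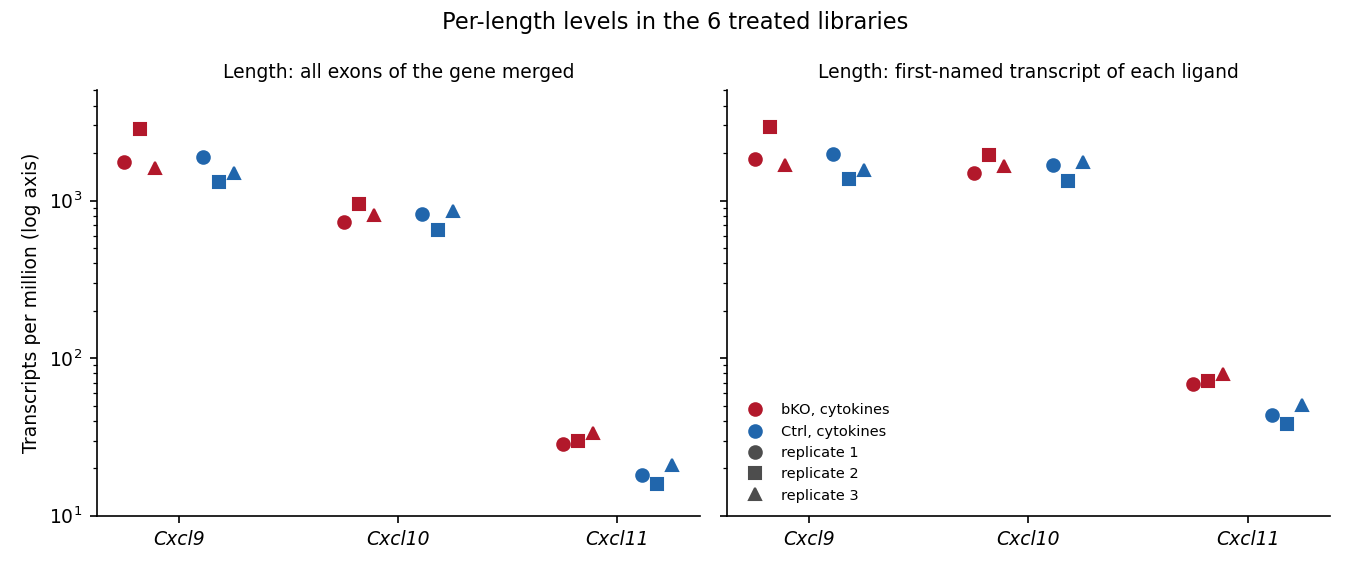
Level in TPM on a log axis in the 6 treated libraries, islets labelled bKO left of control islets for each ligand, with merged exon lengths at left and lengths of the first-named transcript at right; shapes mark the replicate number. Cxcl9 lies above Cxcl10 with merged lengths and level with it with first-named transcript lengths, and Cxcl11 is lowest in both panels.

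Under cytokines the genotype label made no detectable difference to Cxcl9 or Cxcl10, while Cxcl11 was higher in islets labelled bKO. Cxcl11 was at 47.1, 41.1 and 53.9 CPM in treated islets labelled bKO, against 29.6, 26.8 and 31.8 CPM in treated control islets. Every library labelled bKO lay above every control library, which was so for 1375 of the 19800 tested genes (6.94%). The means were 47.4 ± 6.39 CPM in treated islets labelled bKO and 29.4 ± 2.51 CPM in treated control islets (SD, n = 3 each), a 1.61-fold ratio or 0.69 on the log2 scale (SE 0.111; adjusted p = 0.0355, edgeR). Of the 3 members, 1 was called higher, where 0.141% of all genes tested were (28 genes, with 18 called lower), and Cxcl11 was at place 31 by p-value. The call was close to the threshold and ended with a fit of the treated libraries alone (adjusted p = 0.362) and with 10 of the 12 libraries left out singly. Without replicates 1, 2 or 3 of the treated control islets the adjusted p was 0.0901, 0.128 and 0.133, and leaving out replicate 3 of the treated bKO group gave 0.129. Without replicates 1, 2 or 3 of the untreated islets labelled bKO it was 0.0633, 0.0756 and 0.074, and without replicates 1, 2 or 3 of the untreated control islets 0.0551, 0.0614 and 0.076. It held when replicate 1 of the treated bKO group was left out (0.0309) and without replicate 2 (0.00519), and the log2 difference stayed between 0.58 and 0.77 in all of these fits.

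Cxcl9 was at 2304, 3093 and 2067 CPM in treated islets labelled bKO, against 2449, 1772 and 1813 CPM in treated control islets. The groups overlapped, and the log2 difference was 0.31 (SE 0.282; adjusted p = 0.564, edgeR), with an interval of 2 SE each side from -0.26 to 0.87. Leaving out replicate 2 of the treated bKO group, which held the highest Cxcl9 level, gave a log2 difference of 0.11. Cxcl10 was at 719, 776 and 776 CPM in treated islets labelled bKO, against 798, 650 and 773 CPM in treated control islets. These groups overlapped too, differing by 0.03 on the log2 scale (SE 0.156; adjusted p = 0.93, edgeR) and an interval from -0.28 to 0.34. For Cxcl10 a difference of more than 0.34 on the log2 scale lay outside that interval, and for Cxcl9 the wider spread left room for larger ones.

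**Figure D3:**
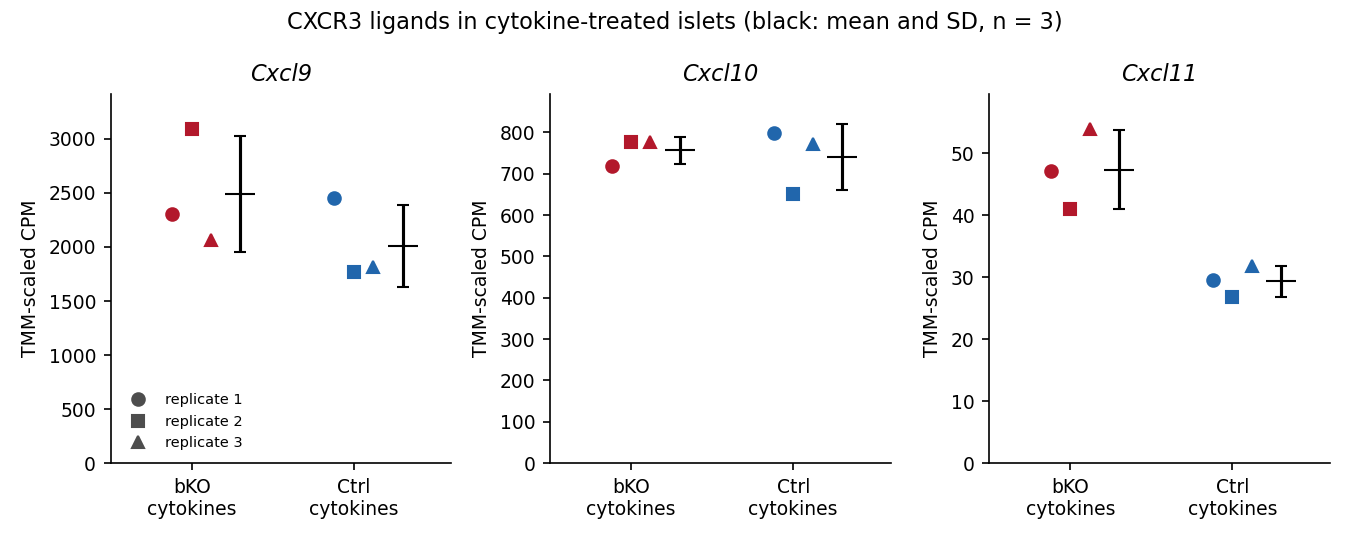
TMM-scaled CPM in the 6 cytokine-treated libraries, islets labelled bKO left of control islets, with points for single libraries and black marks for mean and SD (n = 3). Cxcl11 lies between 41.1 and 53.9 in islets labelled bKO and between 26.8 and 31.8 in control islets, and the groups overlap for Cxcl9 and Cxcl10.

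Ratios of counts within one library do not depend on how libraries are scaled. Cxcl11 over Cxcl10 was 0.0655, 0.053 and 0.0695 in treated islets labelled bKO, against 0.037, 0.0412 and 0.0412 in treated control islets. The groups did not overlap, with a difference of 0.65 on the log2 scale and p = 0.1 in a two-sided exact permutation test, the smallest p that 3 against 3 can give. Cxcl9 over Cxcl10 was 3.21, 3.98 and 2.67 in treated islets labelled bKO, against 3.07, 2.73 and 2.35 in treated control islets, and the groups overlapped (difference 0.26, p = 0.3, exact permutation test). Cxcl9 over Cxcl11 was 49, 75.2 and 38.3 in treated islets labelled bKO, against 82.9, 66.1 and 57 in treated control islets, again with overlap (difference -0.38, p = 0.3, exact permutation test). Leaving out replicate 2 of the treated bKO group gave differences of 0.76 for Cxcl11 over Cxcl10, 0.12 for Cxcl9 over Cxcl10 and -0.65 for Cxcl9 over Cxcl11.

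Without cytokines no ligand was called by genotype. In untreated islets, where 0.0758% of all genes tested were called in either direction (15 genes, all higher), 0 of the 3 ligands were. The log2 difference was 0.71 (SE 0.701) for Cxcl9, -0.05 (SE 0.191) for Cxcl10 and -0.17 (SE 0.327) for Cxcl11, each with an adjusted p of 1 in edgeR. The Cxcl9 value came from single libraries: without replicate 2 of the untreated islets labelled bKO, which had 33 counts, it was -0.65. At 4 to 33 counts of Cxcl9 and 4 to 8 counts of Cxcl11 per untreated library the intervals of 2 SE each side were wide, from -0.70 to 2.11 for Cxcl9 and from -0.82 to 0.49 for Cxcl11. The Cxcl11 interval is still too narrow. Its SE of 0.327 lies below counting error at so few counts and is smaller than the unadjusted p of 0.717 (edgeR) implies.

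The difference between the cytokine effects of the 2 genotypes was tested as an interaction, in which 0% of all genes were called by edgeR. At an unadjusted p under 0.05 there were 2162 genes, and DESeq2 called 186 and limma-voom 0. For Cxcl11 the cytokine effect was larger in islets labelled bKO by 0.86 on the log2 scale (SE 0.345; unadjusted p = 0.066, adjusted p = 0.482, edgeR). This did not pass, before or after adjustment, and the SE is smaller than that unadjusted p implies. The difference of cytokine effects was -0.40 (SE 0.758; adjusted p = 0.844, edgeR) for Cxcl9 and 0.09 (SE 0.247; adjusted p = 0.904, edgeR) for Cxcl10. Leaving out replicate 2 of the treated bKO group gave differences of 0.94 for Cxcl11, -0.60 for Cxcl9 and 0.06 for Cxcl10, and none passed. The comparisons share libraries with one another, so the higher Cxcl11 under cytokines and its larger cytokine effect are not separate observations.

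**Figure D4:**
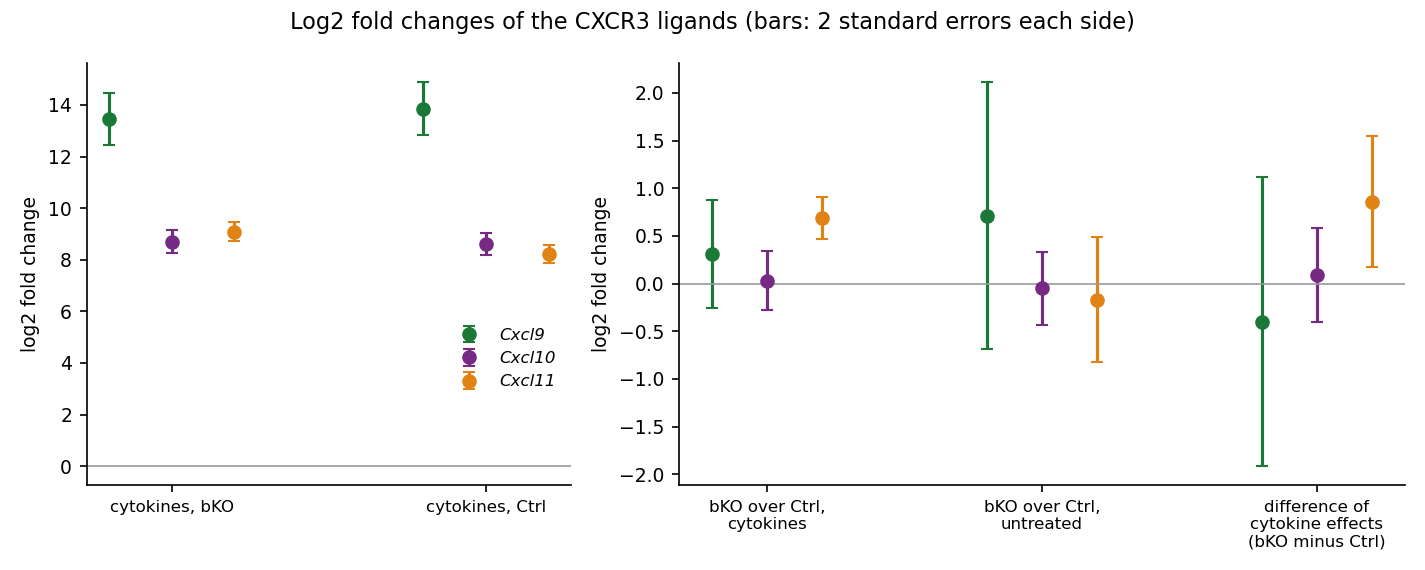
Log2 fold changes of the 3 ligands from the edgeR fit, with bars of 2 standard errors each side; the left panel shows treated over untreated islets and the right panel, on its own scale, islets labelled bKO over control islets and the difference of the cytokine effects. In the right panel the bars of Cxcl11 clear 0 under cytokines and in the difference of effects, but only the difference under cytokines passed. The difference of effects did not pass before adjustment either (unadjusted p = 0.066, edgeR). Bars of Cxcl11 that involve its few untreated counts are too narrow.

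Among the 6 treated libraries the correlation of Cxcl9 with Cxcl10 did not pass the test. Pearson's r of their log2 CPM was 0.50 (exact permutation p = 0.283, adjusted 0.578) and Spearman's rho 0.77 (exact permutation p = 0.103, adjusted 0.308), adjusted over the 3 pairs of ligands, and r was -0.06 over the 4 libraries left without the 2 farthest in Cxcl9, which also narrows its range. Leaving out replicate 2 of the treated bKO group alone gave an r of 0.51. For Cxcl11 no r is given with any gene, because its values fall apart by genotype into 3 and 3 libraries. Of 10909 genes with a mean of at least 5 CPM in treated libraries, the 5 whose log2 CPM ran most like Cxcl9 over the 6 libraries were Tsc22d4 (r 0.995), Ntmt1 (0.992), Mapre1 (0.992), Parg (0.990) and Clec4n (0.989). For Cxcl10 they were Hccs (0.987), Vash1 (0.985), B4galt7 (0.981), Mef2c (0.974) and Dmd (0.961). With only 6 libraries that share treatment and differ in genotype and depth, 136 genes reached an r of 0.95 with Cxcl9 and 11 with Cxcl10.

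The genes around the ligands on chromosome 5 also rose with cytokines, but far less. Within 100 kb either side of the ligands lie 11 other annotated genes, of which 6 passed the filter, and all 6 rose in both genotypes, with a median log2 fold change of 0.56 in islets labelled bKO and 0.51 in control islets, beside -0.06 and -0.10 over all tested genes. The share of all tested genes called higher was 28.8% and 26.8% in the same islets. Art3, an ADP-ribosyltransferase family gene on the opposite strand whose span holds Cxcl10 and Cxcl11, was at 9.69, 12.9 and 9.52 CPM in treated islets labelled bKO, against 2.14, 1.78 and 1.89 CPM in untreated ones. In control islets it was at 10.3, 8.26 and 8.34 CPM with cytokines, against 1.38, 2.25 and 2.74 CPM without. Its log2 fold change was 2.47 (SE 0.231) in islets labelled bKO and 2.07 (SE 0.227) in control islets (adjusted p = 3.2e-06 and 1.2e-05, edgeR), and 2.37 in islets labelled bKO without their treated replicate 2. Art3 shares 133 exonic bases with Cxcl10, and no source used here gives the strand setting of the counting. Cxcl10 reads on those bases may have been counted to Art3 or left out of both genes. Which of these applies was not tested. Naaa, an acid amidase, rose by 0.67 and 0.53 on the log2 scale in islets labelled bKO and control islets, the nucleoporin gene Nup54 by 0.44 and 0.47, and Sdad1 by 0.37 and 0.37 (largest adjusted p = 3.9e-04 for Naaa, 1.4e-04 for Nup54 and 3.0e-04 for Sdad1, edgeR). Scarb2 and Ppef2, which also rose, had 0.44 and 1.77 in islets labelled bKO and 0.49 and 1.45 in control islets. Leaving out single libraries kept all 6 called higher with cytokines. In other alternative settings the count fell as low as 4 in islets labelled bKO and 5 in control islets. None of the 6 was called by genotype. Gm2673, a processed pseudogene on the other strand that shares 1582 exonic bases with Cxcl11, had at most 0.0802 CPM in any library. Counting without regard to strand could leave reads on shared bases out of both genes, so the Cxcl11 level per length may be too low; this was not tested.

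**Figure D5:**
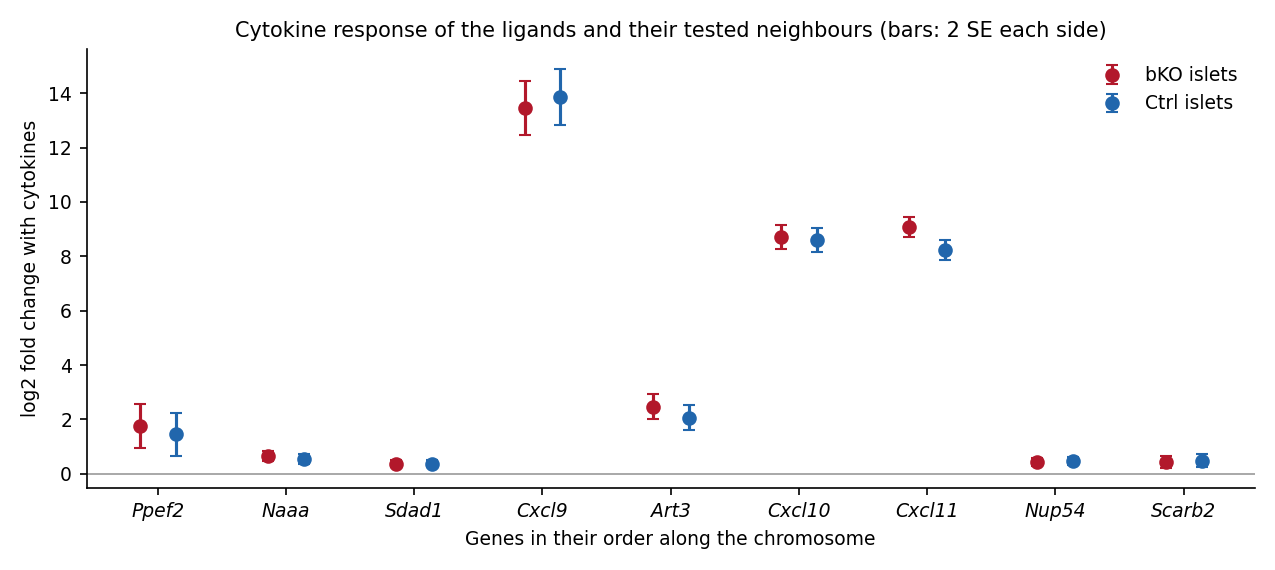
Log2 fold change with cytokines of the 3 ligands and the 6 tested neighbouring genes, in their order along the chromosome, for islets labelled bKO left of control islets; bars show 2 standard errors each side. The ligands lie between 8.22 and 13.85, Art3 at 2.47 and 2.07, and the flanking genes between 0.37 and 1.77. The Cxcl11 bars are too narrow, because their SEs lie below the counting error of its untreated counts.

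The ligands' receptor was barely present in these islets. Cxcr3 had 13 counts over the 3 treated libraries labelled bKO and 12 over the untreated ones, against 12 over the treated and 11 over the untreated control libraries, and did not pass the filter. Of the 4 tested genes that bind, clear or trim these chemokines, 2 rose and 1 fell in islets labelled bKO, and 1 rose and 1 fell in control islets (medians 0.82 and 0.01). Of all 19800 tested genes 28.8% and 26.8% were called higher in the same islets, and 6647 and 6704 genes lower. Dpp4, the membrane protease that clips the amino end of the CXCR3 ligands, averaged 11.3 CPM in treated and 51.9 CPM in untreated islets labelled bKO, and 17.8 CPM in treated and 57.3 CPM in untreated control islets. It fell by 2.20 on the log2 scale in islets labelled bKO (SE 0.152; adjusted p = 2.9e-07, edgeR) and by 1.69 in control islets (SE 0.148; adjusted p = 2.1e-06, edgeR). Under cytokines Dpp4 was at 11.2, 9.08 and 13.7 CPM in islets labelled bKO, against 16, 19.2 and 18.3 CPM in control islets. These groups did not overlap, but the log2 difference of -0.65 did not pass (SE 0.148; adjusted p = 0.0868, edgeR; -0.53 and 0.133 without the treated bKO replicate 2), while DESeq2 and edgeR with no filter called it. Of all tested genes, 10.8% had every treated library labelled bKO below every treated control library. Sdc4, a heparan sulfate proteoglycan of the kind that holds chemokines at the cell surface, rose by 1.53 in islets labelled bKO and 1.28 in control islets (adjusted p = 5.4e-08 and 2.4e-07, edgeR). Sdc1, of the same family, rose in islets labelled bKO (log2 1.01, SE 0.248; adjusted p = 0.00413, edgeR; 0.77 and 0.0059 without the treated bKO replicate 2), and its value in control islets was 0.18 (SE 0.246; adjusted p = 0.539, edgeR). The scavenger receptor gene Ackr3 had log2 values of 0.64 and -0.16 in islets labelled bKO and control islets and was not called (adjusted p = 0.164 and 0.728, edgeR).

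Of the 11 tested genes for other CXC chemokines, 5 rose and 0 fell in islets labelled bKO, and 5 rose and 2 fell in control islets, with medians of 1.15 and 0.50. Among all 19800 tested genes 28.8% and 26.8% were called higher in the same islets, and 6647 and 6704 genes lower. Cxcl1, Cxcl2 and Cxcl3, which draw neutrophils through CXCR2, averaged 363, 75.2 and 180 CPM in treated islets labelled bKO, and 337, 64.6 and 196 CPM in treated control islets. Their log2 fold changes with cytokines were 7.48, 7.63 and 7.38 in islets labelled bKO and 7.66, 7.31 and 7.52 in control islets (largest adjusted p = 4.4e-09, edgeR), each below those of all 3 CXCR3 ligands in the same islets. Cxcl16, a membrane-bound ligand of CXCR6, rose by 3.09 and 3.16 (adjusted p = 4.8e-09 and 4.1e-09, edgeR). Cxcl5, named after its values were seen as the last of the 5, rose by 7.90 and 6.56 (adjusted p = 4.6e-07 and 1.4e-06, edgeR), and by 7.26 in islets labelled bKO without their treated replicate 2. The genes that fell in control islets were Cxcl12 and Cxcl13, also named after the fact, and neither was called lower without replicate 2 or replicate 3 of the treated or replicate 3 of the untreated control islets; without replicate 2 of the untreated ones 1 was. Of the 2, 1 was called with no filter, with a filter at 1 CPM, with DESeq2 and with either form of the replicate block. Leaving out replicate 1 of the treated bKO group raised the count that rose there to 8. None of the 11 was called by genotype.

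The listed genes of the IFN-gamma signal route, from receptor to transcription factor, rose in both genotypes, 10 of 10 in each, with medians of 1.75 in islets labelled bKO and 2.02 in control islets. Over all tested genes 28.8% and 26.8% were called higher in the same islets. Irf1, a transcription factor that binds the ISRE, averaged 761 CPM in treated and 66.8 CPM in untreated islets labelled bKO, and 855 CPM in treated and 63.8 CPM in untreated control islets (log2 3.51 and 3.74; adjusted p = 2.4e-10 and 1.5e-10, edgeR). The receptor subunit gene Ifngr2 rose by 1.76 and 1.57 and the kinase gene Jak2 by 1.75 and 1.68 in islets labelled bKO and control islets (largest adjusted p = 3.6e-08, edgeR). None of the 10 was called between treated islets labelled bKO and treated control islets in the edgeR fit. In 3 of the 10 every treated library labelled bKO lay below every treated control library, with log2 differences from -0.71 to -0.17, and in 1 above. Of all tested genes 10.8% lay so below and 6.94% above. Irf9, a part of the type I interferon complex ISGF3 and named after its values were seen, averaged 91.4 CPM in treated islets labelled bKO and 136 CPM in treated control islets (log2 -0.57, SE 0.114; adjusted p = 0.0682, edgeR; -0.50 and 0.101 without the treated bKO replicate 2). Irf1 was at 793, 677 and 814 CPM in treated islets labelled bKO, against 824, 865 and 876 CPM in treated control islets (log2 -0.17, SE 0.0812; adjusted p = 0.304, edgeR; -0.10 without the treated bKO replicate 2). Leaving out replicate 1 of the treated bKO group, Irf9 was called lower, and DESeq2 and edgeR with no filter called 2 lower.

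Of 7 feedback inhibitors of JAK-STAT signals, 4 rose and 0 fell in each genotype (medians 0.41 in islets labelled bKO and 0.74 in control islets). Beside these, 28.8% and 26.8% of all tested genes were called higher in the same islets. Scaled by library totals alone, 3 rose and 2 fell in islets labelled bKO. Socs1, which blocks JAK kinases, rose by 5.29 and 5.20 on the log2 scale, Usp18, an inhibitor at the type I interferon receptor, by 3.13 and 3.23, Ptpn2 itself by 1.51 and 1.47, and its close relative Ptpn1 by 0.41 and 0.74 (largest adjusted p = 0.00473, edgeR). Under cytokines Socs1 was at 98.4, 114 and 103 CPM in islets labelled bKO, against 79.8, 69.6 and 87.8 CPM in control islets, and Usp18 at 80, 67.2 and 78.5 CPM in islets labelled bKO, against 95.1, 105 and 96.2 CPM in control islets. Neither pair of groups overlapped, beside 6.94% of all tested genes with bKO above and 10.8% with bKO below, and edgeR called neither (log2 0.41, adjusted p = 0.172, and log2 -0.39, adjusted p = 0.099; 0.34 and -0.33 without the treated bKO replicate 2). DESeq2 called Usp18 lower.

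The route from the TNF and IL-1 receptors to NF-kB rose in most of its members. Of 19 genes, 15 rose and 1 fell in islets labelled bKO, and 16 rose and 1 fell in control islets, with medians of 1.33 and 1.44. For all tested genes the shares called higher were 28.8% and 26.8%. Tnfaip3, the ubiquitin-editing NF-kB inhibitor A20, rose by 4.51 and 4.46, Nfkbia, the inhibitor IkB-alpha, by 3.84 and 3.93, and the subunit genes Nfkb2 and Rel by 2.11 and 1.65 in islets labelled bKO and by 2.35 and 1.93 in control islets (largest adjusted p = 1.3e-08, edgeR). The gene that fell was Il1r1, the receptor of IL-1, at 137 CPM in treated and 627 CPM in untreated islets labelled bKO, and at 155 CPM in treated and 685 CPM in untreated control islets (log2 -2.20 and -2.14; adjusted p = 4.4e-07 and 5.9e-07, edgeR). None of the 19 was called by genotype in the edgeR fit.

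Among genes for other interferons, those of type III appeared with cytokines at low levels. Of 9 genes for type I and III interferons, IFN-gamma and receptors, 6 passed the filter and 5 rose in each genotype, with medians of 0.96 in islets labelled bKO and 0.95 in control islets, also with the genes at 0 set to their lower bound. Shares of all tested genes called higher were 28.8% and 26.8% in the same islets. Ifnl2 and Ifnl3, which encode type III interferons, had 0 counts in all 6 untreated libraries. They passed the filter through the treated libraries alone, so with cytokines a rise was the only call open to them. Their part in the count of genes that rose is therefore not comparable with the share over all tested genes. Ifnl2 was at 2.49, 0.69 and 1.88 CPM in treated islets labelled bKO, against 1.53, 1.65 and 1.48 CPM in treated control islets, and was at least 112-fold and 107-fold higher than the level that 3 counts over the untreated group would give. Ifnl3 was at 2.49, 1.38 and 2.03 CPM in treated islets labelled bKO, against 2.32, 2.4 and 1.62 CPM in treated control islets, at least 130-fold and 146-fold higher by the same floor. These floors cover counting error only. The receptor genes Ifnar2 and Il10rb rose by 1.21 and 0.71 in islets labelled bKO and by 1.26 and 0.63 in control islets (largest adjusted p = 8.0e-05, edgeR). The fifth gene, named after its values were seen, was Ifnar1 in islets labelled bKO (log2 0.48, adjusted p = 0.0115, edgeR) and Ifnlr1 in control islets (log2 0.65, adjusted p = 0.0332, edgeR). Ifnb1, for interferon-beta, had 16 counts over the treated libraries labelled bKO and 50 over the treated control libraries, and 0 in every untreated library, and Ifna4 had 0 in all 12; neither was tested. Ifng itself had 1 count in the treated libraries labelled bKO and 0 in every other library.

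Markers of cells other than endocrine cells moved with the treatment. Of 9 tested macrophage and monocyte markers, 7 rose and 1 fell in each genotype, and the 10 markers in the count table summed to 470 to 606 CPM in treated and 165 to 229 CPM in untreated islets labelled bKO, and to 453 to 557 CPM in treated and 175 to 201 CPM in untreated control islets. The complement gene C1qa averaged 144 CPM in treated and 43.8 CPM in untreated islets labelled bKO, and 137 CPM in treated and 40.4 CPM in untreated control islets. The marker that fell was Cx3cr1, at 1.32 CPM in treated and 11.4 CPM in untreated islets labelled bKO. Leaving out replicate 2 of the treated bKO group, 2 fell in each genotype, and in control islets 2 fell in 8 of the 23 alternative settings, among them the fits that leave out replicate 3 of the treated bKO group or replicate 1 of the treated control islets. Dendritic cell markers summed to 40 to 44.2 CPM in treated and 14.4 to 19.7 CPM in untreated islets labelled bKO, and to 43.2 to 51 CPM in treated and 15.7 to 20.4 CPM in untreated control islets, with Cd209a at 0 in all libraries. Most of these sums was Itgax, at means of 35.5 CPM in treated islets labelled bKO and 39.2 CPM in treated control islets. Of the 4 dendritic markers tested, 2 rose and 0 fell in each genotype, with medians of 0.40 in islets labelled bKO and -0.26 in control islets. Of 7 endothelial markers all 7 fell in both genotypes, to sums of 155 to 201 CPM in treated islets labelled bKO, against 638 to 658 CPM in untreated ones, and of 120 to 184 CPM in treated control islets, against 577 to 737 CPM in untreated ones. Acinar markers fell in 2 of 6 genes in islets labelled bKO and 5 of 6 in control islets, to sums of 218 to 878 CPM in treated islets labelled bKO, against 885 to 1449 CPM in untreated ones, and of 294 to 539 CPM in treated control islets, against 1849 to 3094 CPM in untreated ones. Of 7 stellate cell and fibroblast markers 5 rose in islets labelled bKO and 1 in control islets. Replicate 2 of the treated bKO group had a stellate sum of 8165 CPM, against 3279 and 3082 CPM in replicates 1 and 3. Lum and Col1a2 were close to the threshold there (adjusted p = 0.0443 and 0.0474, edgeR), and no fit without that replicate is given for these markers. In the interaction 0 of the 7 were called. Of 5 ductal markers 2 rose in each genotype and 2 fell in control islets. Among all 19800 tested genes 28.8% were called higher in islets labelled bKO and 26.8% in control islets, and 6647 and 6704 genes lower. The acinar count in islets labelled bKO lay near that share of lower genes. Among endocrine cells, all 4 alpha cell markers fell in both genotypes, as did 1 of 2 delta and 2 of 2 PP cell markers in islets labelled bKO and 2 of 2 and 1 of 2 in control islets. The part of these cells in the ligand levels was not tested.

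T cell and NK cell markers, the cells on which CXCR3 is known, were near 0 throughout. The 8 T cell markers summed to 1.59 to 2.65 CPM in treated and 2.39 to 2.59 CPM in untreated islets labelled bKO, and to 1.19 to 1.56 CPM in treated and 1.96 to 3.81 CPM in untreated control islets. The 5 NK cell markers summed to at most 0.141 CPM in any library, with Ncr1 at 0 in all. Between the treated groups, where Cxcl11 differed, macrophage markers overlapped and 0 of 9 were called. Stellate cell and fibroblast markers summed to 3279, 8165 and 3082 CPM in treated islets labelled bKO, against 4316, 1500 and 3148 CPM in treated control islets. Replicate 2 had the highest stellate sum among treated islets labelled bKO and the lowest among treated control islets, and in both groups replicate 2 had the lowest Cxcl11 level. These are single libraries, and any tie between the stellate sum and Cxcl11 was not tested. Beta cell markers summed to 162346, 89998 and 147508 CPM in treated islets labelled bKO, against 161907, 177419 and 144395 CPM in treated control islets, and 1 of 8, Ucn3, named after its values were seen, was called lower (9.1 CPM in treated islets labelled bKO and 21.1 CPM in treated control islets; log2 -1.22, adjusted p = 0.0334, edgeR; -1.02 and 0.0172 without the treated bKO replicate 2). In 6 of the 8 beta cell markers every treated library labelled bKO lay below every treated control library (log2 -1.22 to -0.37), and in 0 above. The same held below for 3 of the 4 alpha cell markers (log2 -0.75 to -0.41), with 0 above. Of all tested genes 10.8% lay so below and 6.94% above. With cytokines 5 of the 8 beta cell markers fell in each genotype. None of the alpha, delta, PP, B, dendritic, endothelial, stellate, ductal or acinar markers tested was called between the treated groups, and the part of any of these cells in the Cxcl11 difference was not tested.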

How the data were processed

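RNA-seq of cultured mouse islets gave 12 libraries in 4 groups of 3. The authors deposited raw counts per gene in a table of the whole series, and these counts were used as deposited. Per the submitters' processing notes, the tools included FastQC 0.11.7, cutadapt 1.16, STAR 2.5.2a and featureCounts 1.6.2 with the build GRCm38, and DESeq2 1.30.0. The sources used here give neither the annotation release nor the strand setting of the counting. A filtered version of the table was not used here. No column of per-sample values was left unused (0). Library totals ran between 47064061 and 107515565 counts, and sampling noise is therefore small beside the spread between libraries except for genes at a few counts.

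From the counts, genes were filtered with filterByExpr, scaled with TMM factors and fitted with edgeR 4.0.16 in R 4.3.3, with one coefficient per group over all 12 libraries. The quasi-likelihood test was adjusted by Benjamini-Hochberg over 19800 genes and called at 0.05. This procedure was tested on simulated data. Levels in TPM used merged exon lengths of GENCODE M21, matched for 55450 genes. Ratios and correlations used exact permutation tests in SciPy 1.17.1 (with NumPy 2.4.6 and pandas 2.3.3; figures with matplotlib 3.10.9).

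The labels give 3 mice per genotype but not which libraries share a mouse. P-values therefore treat the treated and untreated libraries as independent and measure the spread between these libraries. The 12 pairs of libraries within groups were compared for repeats at genes of 20 counts or more, where the smallest chi-square per degree of freedom was 15, and none was counted as a repeat.

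The members and lists were chosen with earlier results of these data known. Beside the members, up to 4 genes per list were named by smallest adjusted p in the cytokine comparisons, every gene within 100 kb of the ligands was taken as a neighbour, and for Cxcl9 and Cxcl10 the 5 most alike genes were named (those of Cxcl11 were left out because its values split by genotype). Genes named outside that rule are marked as such. A gene of the lists that the rule names and a motif searched are not reported here. Alternatives covered scaling, filters, DESeq2 1.42.0, limma-voom (limma 3.58.1), robust dispersions, a prior count of 2, the compared groups alone, the replicate number as a block, single libraries left out, and other gene lengths.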

Additional observations from a re-analysis of the deposited data

How the results depend on the processing

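The rise of all 3 ligands with cytokines kept its direction and its call in all 23 settings in each genotype, and the counts of genes called with cytokines stayed within 1.5 times. In the other comparisons the cause of each change was not tested. Between treated genotypes, the log2 difference of Cxcl11 no longer passed with the compared groups only (0.70, adjusted p = 0.362) or with the replicate number as a block (0.68, adjusted p = 0.059), and ran from 0.58 to 0.77 with single libraries left out. Whether a replicate number marks a mouse is not settled. Between treated and untreated libraries of a genotype, deviations of same-numbered libraries correlated between -0.18 and 0.1. Own numbers correlated best in 1 of 3 pairs in islets labelled bKO and in 0 of 3 in control islets. Between genotypes, which are different mice, these correlations ran from -0.72 to 0.04. The sign-flip test by replicate number cannot go below 0.25.

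Small differences changed sign. Cxcl10 between treated genotypes ran from -0.05 to 0.09 with single libraries left out. Between untreated genotypes Cxcl9 ran from -0.65 to 1.14, Cxcl10 from -0.35 to 0.14 with a value of 0.00 among them, and Cxcl11 from -0.34 to 0.04. In the interaction Cxcl9 was 0.00 with limma-voom and -0.83 to 0.96 with single libraries left out, and Cxcl10 -0.11 to 0.38, with 0.00 among them.

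Counts of genes called moved most between genotypes. With cytokines the 46 genes became 190 with no filter, 700 with DESeq2, 0 with the compared groups only and 7 with the replicate block, and 4 to 444 with single libraries left out. Without cytokines the 15 became 32 with no filter, 128 with DESeq2, 121 with the compared groups only and 12 to 59 with single libraries left out. For the interaction the 0 became 1 with no filter, 186 with DESeq2 and 0 to 3 with single libraries left out. Mean levels of treated islets in TPM moved with gene length: with the longest transcript Cxcl9 was at 1276 in control islets, Cxcl10 at 652 and 611 and Cxcl11 at 23.8 and 14.3 in islets labelled bKO and control islets; with the first-named transcript, chosen after seeing the data, Cxcl10 was at 1707 and 1596 and Cxcl11 at 73.2 and 43.9. Untreated counts of 4 to 33 limit the fold changes and untreated genotype differences of Cxcl9 and Cxcl11. Cxcl9 and Cxcl11 between untreated genotypes could not be tested with the compared groups only, where they fell under the filter.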
